A study of Mus musculus with 8 samples.

Results

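The genes described here are 10 fibroblast growth factor (FGF) genes, 6 ligands (Fgf2, Fgf3, Fgf5, Fgf8, Fgf15 and Fgf17) and 4 receptors (Fgfr1, Fgfr2, Fgfr3 and Fgfr4), out of 41128 genes in the count table. They were taken by gene name from a written list. Fgf3 was chosen by its measured values, for its fall in the Hdac2 line, so its values in that comparison are given as a description, with no test. All 10 were found, and 5 of them (Fgf3, Fgf15, Fgfr1, Fgfr2 and Fgfr3) passed the filter on low counts and were tested, among 14179 genes in all.

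FGFs are secreted proteins that bind tyrosine kinase receptors together with heparan sulphate, a sulphated sugar chain on the cell surface and in the matrix. Bound receptors signal through the adaptor FRS2 to the RAS, RAF, MEK and ERK kinases and to PI3 kinase and phospholipase C gamma, and ERK activity switches on transcription factors such as Etv4 and Etv5 and feedback inhibitors such as the Sprouty and DUSP proteins. In the embryo FGF signals pattern the mesoderm, from which endothelium and blood arise.

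RNA was sequenced from haemogenic endothelium, the endothelium that gives rise to the first blood cells, made in culture from C57BL/6 mouse embryonic stem (ES) cells. The 8 libraries fell into 4 groups of 2, named here by their labels. The Hdac1 lox/lox EtOH and Hdac1 lox/lox 4OHT groups came from cells whose Hdac1 gene carries lox sites, labelled as given ethanol or 4-hydroxytamoxifen (4OHT), and the Hdac2 lox/lox EtOH and Hdac2 lox/lox 4OHT groups came from cells with lox sites at Hdac2. Hdac1 and Hdac2 encode histone deacetylases, and 4OHT is a ligand that activates Cre recombinases built to respond to tamoxifen, with ethanol as its solvent. The EtOH groups carry the same lox alleles as the 4OHT groups. The sources used here do not give the Cre transgene, the length of treatment or the number of ES clones per line, and no line without lox sites was analysed here with 4OHT. An effect of 4OHT itself therefore cannot be told apart from an effect of a deletion. Nothing in the labels says that replicates came from separate cultures, so a p-value measures only the spread between these libraries, which may be technical.

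Total counts ran from 10215792 to 19552380 per library. Levels are given as CPM, a gene's counts per 1000000 counts of its library after scaling with TMM factors, on which 3 counts, used as a floor, equal 0.15 to 0.287 CPM. The counts of the targeted genes did not check the labels. Hdac2 stood at 158 ± 10.1 CPM (SD, n = 2) in the Hdac2 lox/lox EtOH libraries and at 149 ± 0.273 in the libraries labelled 4OHT. Hdac1 had 5.69 ± 0.129 CPM with EtOH and 7.05 ± 0.0922 CPM with 4OHT in its own line, and part of its reads may be assigned to a near-identical copy, Gm10093. Exons outside a deleted part would still be counted, so "4OHT" names a label throughout. Of the 12 endothelial and haemogenic markers, all 12 were tested, with sums of 3286 to 8831 CPM per library. Replicates lay farther apart in the Hdac1 line: the SD within a group over genes, taken from the log2 differences between replicates, was 0.42 and 0.35 in its EtOH and 4OHT groups, against 0.28 and 0.25 in the Hdac2 line. Fold changes also followed gene length. Genes were cut into 4 length classes of equal size, and the longest, with exons of 6608 bases or more in sum, took 21.8% and 23.4% of counts in the Hdac2 EtOH libraries and 34.0% and 36.1% in the Hdac2 4OHT libraries. The same share was 26.7% and 35.3% in the Hdac1 EtOH libraries and 34.1% and 28.8% in the Hdac1 4OHT libraries. In the Hdac2 line the median log2 fold change was -0.50 in the shortest class and 0.61 in the longest, and for the Hdac1 line it was -0.06 and -0.00. The cause of this trend was not tested, and each member is set below beside the 500 tested genes nearest to it in exon length.

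Levels were compared between genes per length, as RPKM, which is CPM divided by the summed exon length in kilobases. Fgfr1 had the highest mean over the 8 libraries, 13.4 RPKM, followed by Fgf3 at 4.72, Fgf15 at 0.742, Fgfr3 at 0.622 and Fgfr2 at 0.171 RPKM. Fgf5 (0.0779), Fgf8 (0.0676), Fgf2 (0.0494), Fgf17 (0.0188) and Fgfr4 (0.0187) were below 0.1 RPKM on average. The order of these means hides the spread of Fgf3. Fgf3 was above 1 RPKM in 6 libraries and ran from 0.229 to 11.6 RPKM, so that it lay above Fgfr1 in 1 library, Hdac2 lox/lox EtOH replicate 1, where Fgfr1 stood at 10.9 RPKM. Fgf15 and Fgfr3 were neighbours in this order and their ranges over libraries overlapped (0.164 to 1.83 and 0.271 to 0.987 RPKM).

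**Figure D1:**
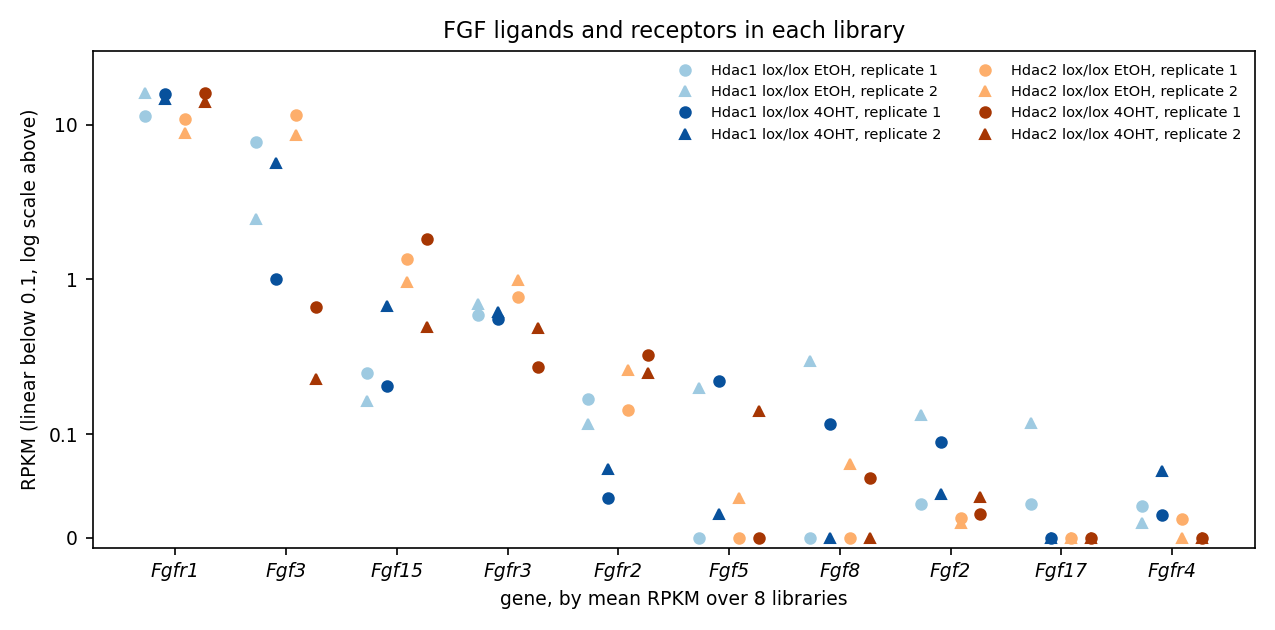
RPKM of each of the 10 genes (y axis, linear below 0.1 and log above) in each of the 8 libraries, coloured by group, with a circle for replicate 1 and a triangle for replicate 2. Fgfr1 lies between 8.80 and 15.9 RPKM in every library, while Fgf3 spreads from 0.229 to 11.6 RPKM.

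Fgf3 and Fgf15 are neighbours on chromosome 7 of mm10, on the plus strand. Fgf3 spans 144838083 to 144844436 and Fgf15 spans 144896532 to 144900953, with Fgf4 between them. The promoters of Fgf3 and Fgfr3 are shown because these are the members whose levels differed most clearly between the Hdac2 groups. Both sequences are from RefSeq on GRCm38.p6, on the plus strand and 5′ to 3′, and stop short of any annotated exon. The Fgf3 stretch is chr7:144838362-144838594, and lies within an intron of a longer GENCODE transcript. The Fgfr3 stretch is chr5:33721474-33721673. Capitals mark matches to 4 motifs, each searched on both strands. The letters AGATAA are a form of the motif bound by blood factors such as GATA1. Promoters of broadly used genes often hold GGGCGG, the core of the site of SP1. The box that places the start of many tissue-specific genes was searched as TATAAA, and an E-box, a site of bHLH factors such as MYOD, as CAGCTG.
Fgf3: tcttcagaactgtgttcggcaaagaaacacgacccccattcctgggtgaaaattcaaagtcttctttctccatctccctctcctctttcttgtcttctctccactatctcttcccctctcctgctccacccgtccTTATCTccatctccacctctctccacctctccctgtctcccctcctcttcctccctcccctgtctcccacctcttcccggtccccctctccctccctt
Fgfr3: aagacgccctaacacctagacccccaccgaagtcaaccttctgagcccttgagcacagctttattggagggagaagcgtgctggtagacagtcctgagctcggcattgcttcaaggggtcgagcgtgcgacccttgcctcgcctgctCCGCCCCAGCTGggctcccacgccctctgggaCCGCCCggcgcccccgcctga
The Fgf3 stretch held 1 AGATAA match, on the minus strand and so written TTATCT here, at 144838497 to 144838502, 115 bases before the RefSeq start. Of 32851 RefSeq promoter stretches cut to the same length, 9.574% held that motif. None of the other 3 motifs was found in it. Its base make-up is lopsided: 79.83% of its letters are c or t, a share reached by 0.0791% of those stretches. The Fgfr3 stretch held 2 GGGCGG matches, on the minus strand, and 1 CAGCTG match that shares no base with them, and 24.64% and 10.3% of stretches of its length held these. A match here describes letters only.

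Fgf3 encodes a secreted FGF that is known for its roles in the inner ear and the tail bud. Its level in the Hdac1 line was 17.8 and 5.75 CPM in EtOH replicates 1 and 2, and 2.36 and 13.1 CPM in 4OHT replicates 1 and 2. The Hdac2 line had 26.9 and 19.9 CPM in the EtOH libraries and 1.55 and 0.533 CPM in the libraries labelled 4OHT, which held 20 and 6 counts. The Hdac2 EtOH libraries were thus the 2 highest of all 8 and the Hdac2 4OHT libraries the 2 lowest, while the Hdac1 groups overlapped. Fgf3 in the Hdac2 line, the difference that placed it on the list, had a log2 fold change of -4.45 ± 0.96 (SE), or 21.9-fold lower with 4OHT, where the 500 genes of like length had a median of -0.26. In the Hdac1 line its log2 fold change was -0.59 ± 0.77 (edgeR quasi-likelihood test, Benjamini-Hochberg adjusted p = 0.930), with a 95% interval from -2.37 to 1.20. That interval takes in changes of more than 4-fold, since each Hdac1 group held a high and a low library. Without Hdac1 EtOH replicate 1 the Hdac1 value was 0.45, and without Hdac1 4OHT replicate 1 it was 0.16, so its direction turned with either. The difference between the lines in the response of Fgf3 was -3.87 ± 1.22 on the log2 scale, and ran from -4.90 without Hdac1 EtOH replicate 1 to -2.13 without Hdac1 4OHT replicate 2. It contains the comparison that chose the gene and is given without a test. In bulk RNA, fewer cells that express a gene and less RNA per cell cannot be told apart, here or in any result below.

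Most markers of red blood cell precursors moved with Fgf3 across libraries, as did other genes given below. The 10 erythroid markers summed to 1329 and 532 CPM in the Hdac1 EtOH libraries, 317 and 645 in the Hdac1 4OHT libraries, 2121 and 2153 in the Hdac2 EtOH libraries, and 434 and 294 CPM in the Hdac2 4OHT libraries. In each of the 4 groups except Hdac2 EtOH, the library with more Fgf3 also had the higher erythroid sum. With 4OHT 8 of the 10 erythroid markers fell in the Hdac2 line and none rose (edgeR quasi-likelihood test over all genes), against a background of 17.2% of genes that fell. Genes of like length were not set beside these markers. Of the 10, none was at 0 in any library. Over the 8 libraries, log2 CPM of Fgf3 correlated with that of Nfe2 (r = 0.946), Car2 (0.924), Gata1 (0.905) and Hbb-y (0.228), which share depth and library with Fgf3. The markers not named here had r of 0.719 (Hba-x) to 0.917 (Hbb-bh1). Each r with Fgf3, here and below, takes in the Hdac2 libraries whose values chose Fgf3, so it is a description only. Correlations with Fgf3 were not taken for the other marker lists, and the genes named next had higher r than any erythroid marker. The pattern is thus not shown to be particular to erythroid genes. The part of erythroid cells in the Fgf3 values was not tested. The genes whose pattern was most like that of Fgf3, by Pearson r of log2(CPM + 0.5) over the 8 libraries among 10003 genes, were Npm3 (0.995), Tsfm (0.995), Wdr34 (0.992), Nit1 (0.990) and Spsb3 (0.990). Npm3, for example, stood at 23.5 and 23.2 CPM in the Hdac2 EtOH libraries and at 7.60 and 5.24 CPM in those labelled 4OHT.

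**Figure D2:**
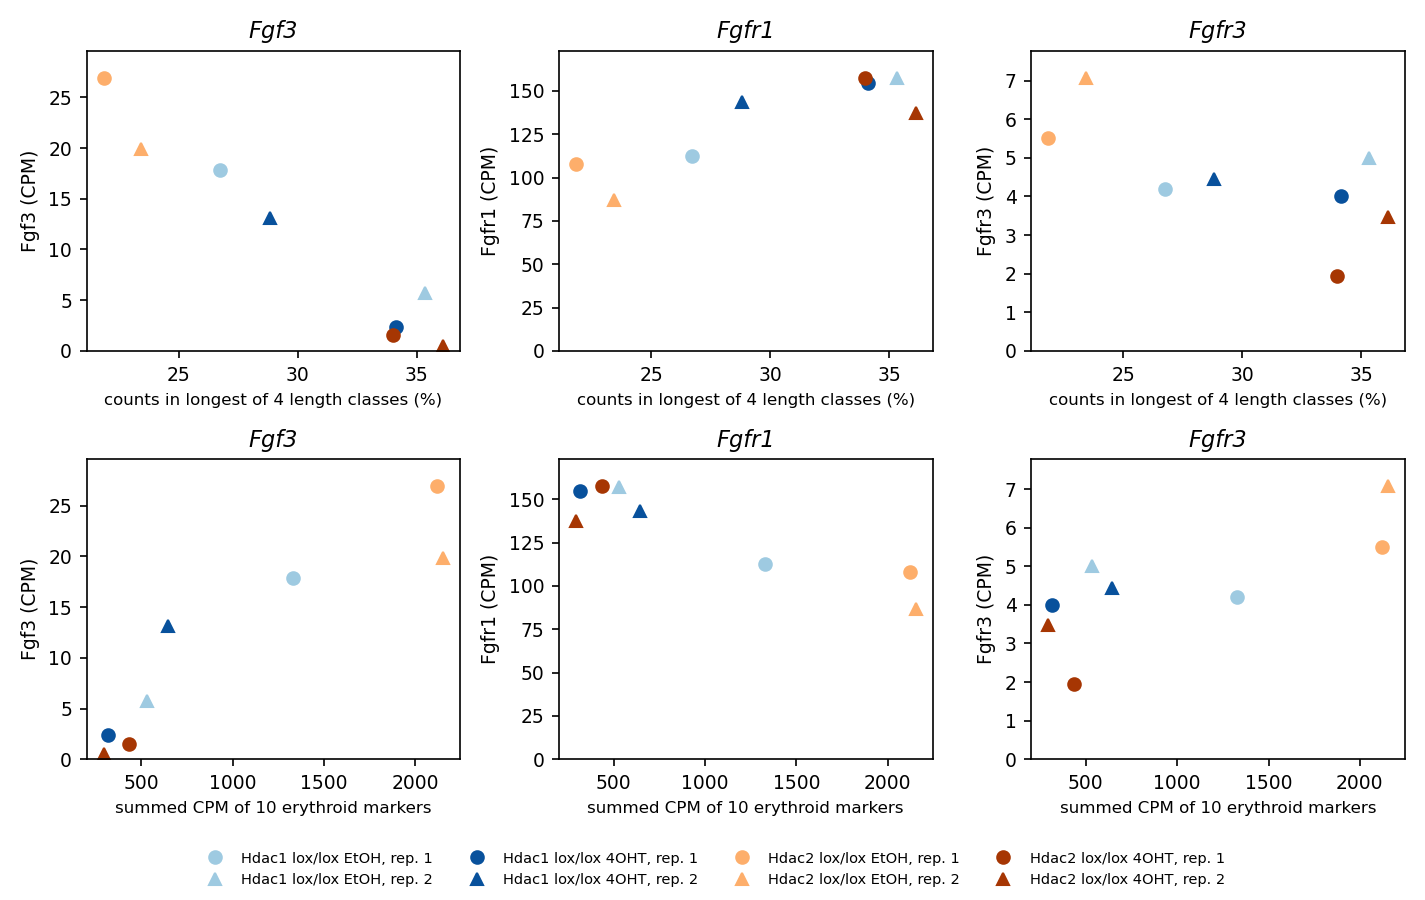
CPM of Fgf3, Fgfr1 and Fgfr3 (columns, y axes) in each of the 8 libraries against the percentage of counts in the longest of 4 length classes of genes (upper row) and the summed CPM of 10 erythroid markers (lower row), coloured by group, circles for replicate 1 and triangles for replicate 2. The 2 libraries with the lowest long-gene share, Hdac2 EtOH at 21.8% and 23.4%, have the highest Fgf3 and Fgfr3 and the lowest Fgfr1.

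The protein-coding genes next to Fgf3 and Fgf15 gave other values in the Hdac2 line. Ano1, the chloride channel gene next upstream of Fgf3, rose in the Hdac2 line with a log2 fold change of 1.59 ± 0.47 (edgeR adjusted p = 0.0357). Fadd, an adaptor of death receptors, had -0.30 ± 0.20 there (adjusted p = 0.267). Fgf4, an ES cell FGF, held 9 counts over all 8 libraries and was not tested. Beyond Fgf15, Oraov1 rose by 0.68 (adjusted p = 0.0422), and Ccnd1, which encodes cyclin D1, had 0.35 (adjusted p = 0.344). The 500 genes with exons of 6868 to 7462 bases, a range that holds Oraov1, had a median of 0.37 there. In the Hdac1 line the log2 fold changes were 1.75 (Ano1), -0.33 (Fadd), 0.03 (Oraov1) and 1.89 (Ccnd1), none past the threshold. For Ano1 both 4OHT libraries lay above both EtOH libraries in each line.

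Fgf15 is the mouse counterpart of human FGF19 and is known from gut and brain. Its level was 0.764 and 0.5 CPM in the Hdac1 EtOH libraries and 0.628 and 2.05 CPM in the Hdac1 4OHT libraries. The Hdac2 line had 4.15 and 2.96 CPM with EtOH and 5.59 and 1.51 CPM with 4OHT. The 4OHT and EtOH groups overlapped in both lines, and the EtOH libraries of the Hdac2 line both lay above those of the Hdac1 line. Its log2 fold change with 4OHT was -0.00 ± 0.70 in the Hdac2 line (adjusted p = 1.0, 95% interval -1.63 to 1.63) and 1.12 ± 0.77 in the Hdac1 line (edgeR adjusted p = 0.830, -0.67 to 2.91). Between the EtOH libraries it was 2.49 ± 0.75 higher in the Hdac2 line, a 5.62-fold difference that missed the threshold (adjusted p = 0.0695). DESeq2 put this difference past the threshold (adjusted p = 0.0127), as did the edgeR fit without a filter on low counts (0.0384). Fgf3, its neighbour, differed between the same EtOH libraries by 0.99 ± 0.76 (edgeR adjusted p = 0.390). The Hdac2 EtOH libraries are among those whose values chose Fgf3, so nothing is read from that value.

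The other 4 ligands were near the floor of detection. Fgf2, a broadly acting FGF often added to endothelial cultures, had 4 and 18 counts in the Hdac1 EtOH libraries, 8 and 5 in the Hdac1 4OHT libraries, 2 and 1 in the Hdac2 EtOH libraries, and 2 and 3 in the Hdac2 4OHT libraries. It overlaps the tested genes Nudt6, Bbs12 and Cetn4, 2 of them on the opposite strand, and its few counts are uncertain for that reason. Fgf5, an FGF of the early epiblast, had 0 to 10 counts per library. Fgf8, which the primitive streak needs for cell movement, had 0 to 8. Fgf17, a close relative of Fgf8, had 1 and 4 counts in the Hdac1 EtOH libraries and 0 elsewhere, which allows up to 0.0990 CPM over the Hdac1 4OHT group, 0.116 over the Hdac2 EtOH group and 0.124 over the Hdac2 4OHT group. Together these 4 ligands had 40 counts in Hdac1 EtOH replicate 2 and 17 in Hdac1 4OHT replicate 1, and from 2 to 7 in the other 6 libraries. Those 2 libraries were thus above the rest, and they come from different groups. Pluripotency markers summed to 5.05 and 3.22 CPM there and to 1.01 to 4.30 CPM in the rest; their part was not tested. In a fit with no filter on low counts, the smallest p among Fgf2, Fgf5, Fgf8, Fgf17 and Fgfr4 was 0.0306 before adjustment and 0.161 after it (edgeR quasi-likelihood test), for Fgf2 between the EtOH libraries. Fgf2 passed the threshold in that comparison when Hdac1 EtOH replicate 1 was left out, which leaves replicate 2, with its 18 counts, as the only Hdac1 EtOH library.

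Among the receptors, Fgfr1 made up nearly all of the message. Its share of the summed receptor RPKM was between 87.6% and 96.4% over the 8 libraries, with Fgfr3 at 1.64% to 9.83%, Fgfr2 at 0.233% to 2.58% and Fgfr4 at no more than 0.421%. Fgfr1 was lowest, and Fgfr3 highest, as a share in the Hdac2 EtOH libraries.

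Fgfr1, the receptor used widely in mesoderm, spans 25513654 to 25575714 on chromosome 8. It stood at 112 and 157 CPM in the Hdac1 EtOH libraries and at 155 and 144 CPM in the Hdac1 4OHT libraries. For the Hdac2 line the levels were 108 and 86.9 CPM with EtOH and 157 and 137 CPM with 4OHT. The Hdac2 EtOH libraries were the 2 lowest of all 8, and the Hdac2 groups did not overlap. The log2 fold change in the Hdac2 line was 0.60 ± 0.21, or 1.51-fold, with an adjusted p of 0.0545 that missed the threshold (edgeR quasi-likelihood test). The 500 genes nearest to Fgfr1 in exon length, 9247 to 10543 bases, had a median of 0.60 as well. With a gene length trend per library taken out, Fgfr1 had -0.01 (adjusted p = 0.970), so its difference equalled the median of genes of its length. Between the Hdac1 groups, which overlapped, it had 0.14 ± 0.20 (adjusted p = 0.938). DESeq2, another scaling (RLE), no filter, and a fit to the Hdac2 line alone each put Fgfr1 past the threshold in the Hdac2 line, with log2 fold changes of 0.59 to 0.63. The genes most like Fgfr1 over the 8 libraries were Cpne2 (r = 0.980), Tnc (0.978), Qpctl (0.977), Cd200 (0.967) and Slc39a14 (0.966). Tnc, which encodes the matrix protein tenascin C, stood at 20.7 to 48.0 CPM in the Hdac2 EtOH libraries and at 98.9 to 605 CPM in the other 6.

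Fgfr3 is a receptor best known as a brake on bone growth, and spans 33721724 to 33737068 on chromosome 5. Its level was 4.2 and 5.0 CPM in the Hdac1 EtOH libraries and 4.00 and 4.44 CPM in the Hdac1 4OHT libraries. Hdac2 lox/lox libraries had 5.51 and 7.07 CPM with EtOH and 1.94 and 3.47 CPM with 4OHT. The Hdac2 EtOH libraries were the 2 highest and the Hdac2 4OHT libraries the 2 lowest of all 8, and the Hdac1 groups overlapped within a narrow range. Fgfr3 fell 2.33-fold in the Hdac2 line, with a log2 fold change of -1.22 ± 0.34 (edgeR quasi-likelihood test, adjusted p = 0.0301, 95% interval -2.01 to -0.42). Genes of its length moved the other way there, with a median of 0.37, and 8.2% of those 500 genes fell. With the length trend taken out its value was -1.56 (adjusted p = 0.0122). Its value in the Hdac1 line was -0.12 ± 0.33 (adjusted p = 0.970, -0.88 to 0.63). The test of the difference between the lines gave -1.10 ± 0.47 (adjusted p = 0.178), so that the response was not shown to differ. The call in the Hdac2 line was lost when any 1 of its 4 libraries was left out, with adjusted p of 0.0756 to 0.155, where the lone library left was taken to vary as the others do.

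Fgfr2, whose splice forms serve epithelium and mesenchyme, was low. It had 1.75 and 1.20 CPM in the Hdac1 EtOH libraries and 0.393 and 0.683 CPM in the Hdac1 4OHT libraries. Hdac2 lox/lox libraries had 1.49 and 2.67 CPM with EtOH and 3.34 and 2.58 CPM with 4OHT. The 4OHT libraries lay below both EtOH libraries in the Hdac1 line, and the groups overlapped in the Hdac2 line. Its log2 fold change in the Hdac1 line was -1.40 ± 0.50, or 2.65-fold lower, which is not past the threshold (edgeR quasi-likelihood test, adjusted p = 0.731). Its value in the Hdac2 line was 0.53 ± 0.44 (adjusted p = 0.362), below the median of 0.61 of genes of like length. The test of the difference between the lines gave 1.93 ± 0.67 (adjusted p = 0.125). The table gives Fgfr2 a span of 2960900 bases that overlaps 21 tested genes, 9 of them on the opposite strand, so its counts are uncertain where reads could be assigned to either gene. Fgfr4, a receptor of liver and muscle precursors, had 0 to 4 counts per library and was not tested.

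**Figure D3:**
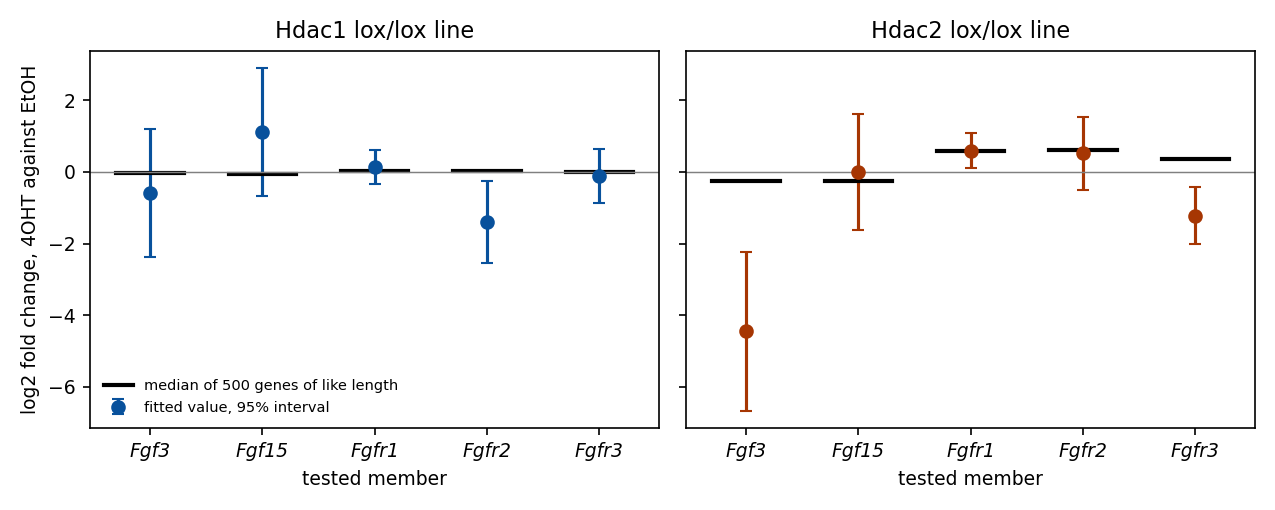
Log2 fold change of 4OHT against EtOH libraries (y axis) for the 5 tested members in the Hdac1 line (left) and the Hdac2 line (right), as points with 95% intervals from the fit, beside the median of the 500 tested genes nearest in exon length (black bars). In the Hdac2 line Fgfr1 and Fgfr2 lie near the bars of genes of their length (0.60 and 0.61), and Fgf3 and Fgfr3 lie below theirs. Fgf3 was chosen for its fall in the Hdac2 line, so its point and interval there are a description and no test.

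Counted over the members, 2 of the 5 tested, Fgf3 and Fgfr3, fell in the Hdac2 line and 0 rose. In that comparison 36.1% of all 14179 genes passed the threshold, 17.2% of them as falls, and because it is the comparison that chose Fgf3 nothing is read from the count. The 4OHT and EtOH libraries did not overlap for 3 of the 5 in the Hdac2 line (Fgf3, Fgfr1 and Fgfr3), against 78.3% of all genes. In the Hdac1 line they did not overlap for 1 of the 5, Fgfr2, against 31.2% of all genes. By edgeR 0 of the 5 passed the threshold in the Hdac1 line (background 0%) and 0 between the EtOH libraries (background 9.33%). The EtOH comparison also holds libraries whose values chose Fgf3. For the difference between the lines, which holds the values that chose Fgf3, 0 of the other 4 passed (background 0.0282%). At p under 0.05 before adjustment there were 1 (Fgfr2), 1 (Fgf15) and 2 (Fgfr2 and Fgfr3) in the same order, and 947, 4686 and 3973 of all genes. DESeq2 called 0, 1 (Fgf15) and 0. The comparisons share libraries, since the Hdac2 EtOH group enters 3 of the 4 and the Hdac1 EtOH group 3 of the 4.

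The other genes of the pathway were read from 6 lists. Of their 95 genes, 93 were in the table and 74 were tested. Of these, 19 rose and 4 fell in the Hdac2 line, against 18.9% and 17.2% of all genes, with a median log2 fold change of 0.39 beside -0.02 over all genes. With the length trend taken out, 18 rose and 7 fell, against 17% and 17.6% of all genes. None of the 74 passed the threshold in the Hdac1 line by edgeR and 2 did by DESeq2. Without any 1 of the Hdac2 libraries the count in the Hdac2 line was 0 to 6.

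Among 16 other genes of the FGF family, not all of them ligands, 4 were tested and both that passed the threshold in the Hdac2 line fell. Fgf10, a ligand of mesenchyme that mainly acts on FGFR2, had higher CPM than any FGF ligand of the set. It stood at 78.8 and 87.9 CPM in the Hdac1 EtOH libraries, 81.9 and 58.7 in the Hdac1 4OHT libraries, 40.1 and 63.6 in the Hdac2 EtOH libraries, and 23.9 and 21.9 CPM in the Hdac2 4OHT libraries. Per length its mean was 12.4 RPKM, next to 13.4 for Fgfr1. The Hdac2 4OHT libraries were the 2 lowest, and the log2 fold change was -1.18 ± 0.26 (edgeR adjusted p = 0.0165). Fgf13, an intracellular relative that does not signal through FGF receptors in the usual way, fell by 1.82 on the log2 scale (adjusted p = 0.0101), from 7.71 and 13.2 CPM to 2.95 and 2.93 CPM. Both kept their call with the length trend taken out (-1.19 for Fgf10 and -1.75 for Fgf13).

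Of 11 tested co-receptors and binding partners, 4 rose in the Hdac2 line and 0 fell. Flrt2, a membrane protein that binds FGF receptors, went from 23.2 and 28.0 CPM with EtOH to 217 and 241 CPM with 4OHT, a log2 fold change of 3.16 ± 0.34 (edgeR adjusted p = 0.00525). Its Hdac1 libraries, at 81.4 to 151 CPM, lay between these groups. The heparan sulphate proteoglycans Gpc4 (2.34) and Sdc3 (1.97) rose too, as did the decoy receptor Fgfrl1 (1.09), with adjusted p of 0.00757, 0.00624 and 0.0100. All 4 kept their call with the length trend taken out. The klotho genes Kl and Klb, co-receptors for the hormone-like FGFs such as Fgf15, had CPM of at most 0.109 in any library.

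Of the 13 tested genes of the heparan sulphate list, 6 rose in the Hdac2 line, 0 fell and 7 did not pass the threshold, with a median of 0.91. Beside these, 18.9% of all genes rose, and 28.6% of the 500 genes with exons of 6868 to 7462 bases. Hspg2, which encodes the matrix proteoglycan perlecan, rose from 436 and 365 CPM to 2124 and 2607 CPM, a log2 fold change of 2.56 ± 0.41 (edgeR adjusted p = 0.00870). The sulphotransferase genes Ndst1 (1.63) and Hs6st1 (1.59) and the chain polymerase gene Ext1 (0.86) also rose, with edgeR adjusted p of 0.0137, 0.0165 and 0.0122. These are long genes, with a median exon length of 7328 bases in the list, and with the length trend taken out the list's median was 0.42 and 5 genes rose, each of them also called without that step. Hspg2 then had 1.62 and Ext1 0.42, both still past the threshold.

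Signal transducers carry the signal from the bound receptor into the cell. Of 25 tested, 6 rose in the Hdac2 line and 0 fell, with a median of 0.16. Among them were the RAS activators Sos1 (1.17) and Sos2 (0.99), the ubiquitin ligase Cbl (2.39) and the PI3 kinase subunit Pik3ca (0.86). With the length trend taken out 2 rose and 3 fell, so the direction of this count turned with that step, and Sos1 (0.50, edgeR adjusted p = 0.0762) and Pik3ca (0.33, 0.113) lost their call. Frs2, the adaptor bound to FGF receptors, had 0.28 (edgeR adjusted p = 0.455), and was looked up after its values were seen.

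Of 11 tested feedback inhibitors, 1 rose and 2 fell in the Hdac2 line. Spry1 fell from 39.5 and 41.4 CPM to 8.85 and 18.2 CPM, a log2 fold change of -1.58 ± 0.40 (edgeR adjusted p = 0.0221), and Spry2 fell by 0.53 on the log2 scale (adjusted p = 0.0388). Spred2 rose by 0.95 (adjusted p = 0.0275). Dusp6, an ERK phosphatase often used as a readout of FGF signalling, had 0.69 ± 0.24 there (adjusted p = 0.0557), and passed the threshold with the length trend taken out (0.88, adjusted p = 0.0190). In that fit Spry2 had -0.21 and lost its call (adjusted p = 0.272), and 3 feedback genes rose and 2 fell. In the Hdac1 line none of the 11 passed the threshold, and the list's median was 0.83 beside -0.02 over all genes. Both 4OHT libraries lay above both EtOH libraries for 8 of the 11 and below for 0, against 15.8% and 15.4% of all genes. Spred3 stood at 2.24 and 2.55 CPM with EtOH and at 6.52 and 11.2 CPM with 4OHT, and Spry4 at 2.78 and 3.50 CPM and at 5.97 and 13.6 CPM. Their log2 fold changes were 1.89 ± 0.40 and 1.64 ± 0.42, each with an edgeR adjusted p of 0.712. Dusp4 (1.06) and Dusp6 (0.81) had the same adjusted p.

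The last list held transcription factors that ERK activity induces, and also Pea15a, which does not encode a transcription factor. In the Hdac2 line 2 of 10 tested rose and 0 fell, a share near the 18.9% of all genes that rose. These were Fos, from 13.7 and 12.2 CPM to 72.6 and 73.2 CPM, and Egr1, from 22.5 and 18.6 CPM to 57.2 and 86.6 CPM. Their log2 fold changes were 2.49 ± 0.30 and 1.80 ± 0.24 (edgeR adjusted p = 0.00690 and 0.00779). The ETS factors Etv4 and Etv5, often used as readouts of FGF signals, had 0.58 and -0.17 there (adjusted p = 0.336 and 0.705). For the ETS factors Etv1, Etv4 and Etv5 the Hdac1 groups did not overlap. Etv5 stood in the Hdac1 line at 2.13 and 1.95 CPM with EtOH and at 5.03 and 9.68 CPM with 4OHT. Etv4 stood at 1.31 and 1.5 CPM and at 5.81 and 4.56 CPM, and Etv1 at 0.6 and 0.8 CPM and at 1.73 and 1.71 CPM, in the same order. Their log2 fold changes were 1.86 ± 0.35, 1.87 ± 0.48 and 1.28 ± 0.40, each with an edgeR adjusted p of 0.712. Over the whole list, Pea15a included, the Hdac1 4OHT libraries lay above both EtOH libraries for 6 of the 10 genes and below for 1. These counts stand against 15.8% and 15.4% of all genes. The difference between the lines was -2.02 for Etv5 (adjusted p = 0.0810) and 2.13 for Egr1 (0.0637), neither past the threshold, though Egr1 passed it with the length trend taken out (adjusted p = 0.0341).

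**Figure D4:**
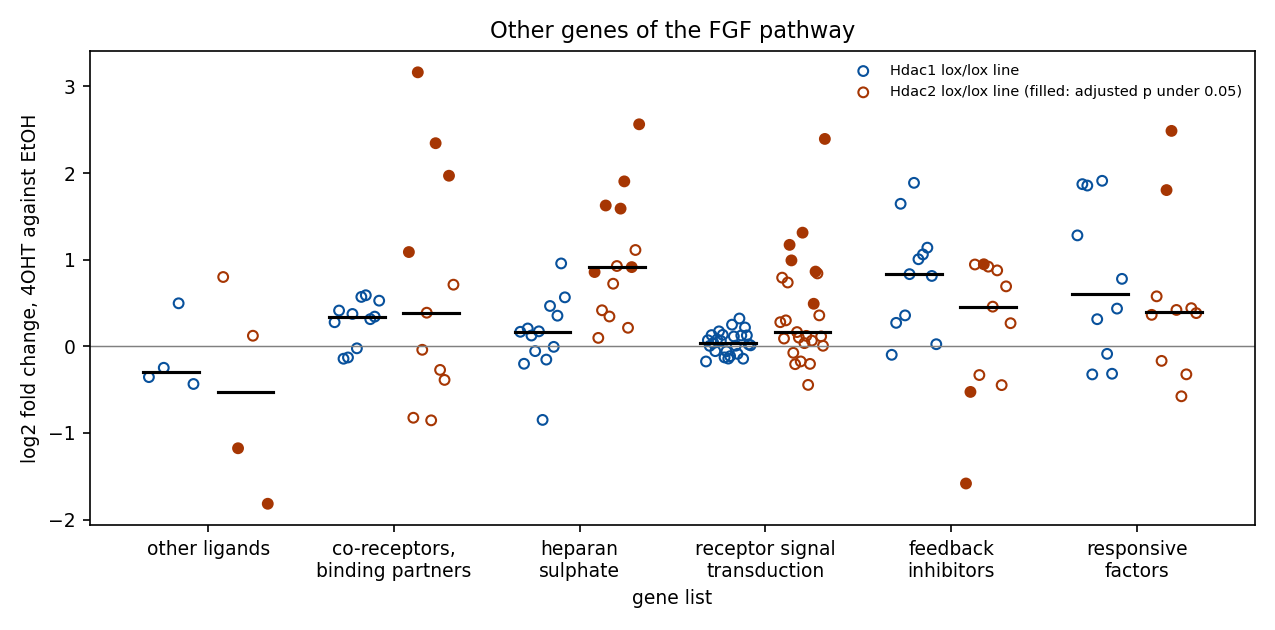
Log2 fold change of 4OHT against EtOH libraries (y axis) for each tested gene of 6 FGF pathway lists (x axis), in the Hdac1 line (blue) and the Hdac2 line (brown), with filled points for an adjusted p under 0.05 and black bars for list medians. The heparan sulphate list has a median of 0.91 in the Hdac2 line, and the feedback list has 0.83 in the Hdac1 line, where no point is filled.

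The EtOH libraries of the lines also differed in feedback genes. Of 74 pathway genes 8 were higher in the Hdac2 line and 2 lower, against 2.91% and 6.42% of all genes. Spred3 (1.91, edgeR adjusted p = 0.0332), Spry1 (1.72, 0.0408) and Dusp6 (1.22, 0.0316) were higher, as was Etv5 (1.99, 0.0249). Of the 11 feedback genes 4 were higher and 1 lower. The ones not yet given, Spred1 (0.94, 0.0288) and the RAS GTPase activator Rasa3 (-0.74, 0.0429), were named after their values were seen. The Hdac1 EtOH libraries were thus the lowest of the 4 groups for Spred3, Etv5 and Dusp6, and they are also the reference for the Hdac1 comparison above. Flrt2 was lower in the Hdac2 line at -2.22 (adjusted p = 0.0179). The count of pathway genes was 0 to 26 when 1 library was left out.

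Markers of other cell types were read beside these values, and their counts stand against 18.9% of all genes that rose and 17.2% that fell in the Hdac2 line. The marker lists were not set beside genes of like length, although fold changes in that line followed length. There 7 of 12 endothelial and haemogenic markers rose and 1 fell, and of the mesenchyme and smooth muscle markers 5 of 8 rose and 0 fell. Mesenchyme markers summed to 1555 to 2200 CPM in the Hdac2 EtOH libraries and to 4337 to 6554 CPM in the Hdac2 4OHT libraries, and to 1637 to 2609 CPM in the Hdac1 line. Endoderm markers (4 of 7) and cardiac markers (3 of 7, with 1 that fell) rose as well, while 1 of 4 neural markers, Nes, rose. Of the mesoderm and primitive streak markers 1 of 4 fell, and of the pluripotency markers 1 of 3 fell. Of the 14 endoderm markers 4 were under the floor in every library, with Apoa2 at 0, and Msgn1 of the mesoderm list was at 0. The part of these cells in the FGF values was not tested.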

How the data were processed

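The deposited table gives raw read counts of 41128 genes in 8 libraries, per the file headers. The library kit was strand-specific, per the labels' protocols. The submitters' processing notes name build mm10 and the tools edgeR 3.8.5, R 3.1.0, Bowtie2 2.2.1, SAMtools 0.1.19 and bcl2fastq 2.17.1.14, without roles. Counting program, annotation and strand setting: not given in the sources used here. Genes were filtered with filterByExpr (14179 left, with 99.9% of counts), scaled by TMM and fitted with edgeR 4.0.16 (R 4.3.3), using a quasi-likelihood model with a mean for each of the 4 groups over all 8 libraries and a spread estimated across groups. P-values were adjusted by Benjamini-Hochberg over all genes tested, at 0.05. RPKM and the length comparisons used exon lengths from GENCODE M21. There 30616 of the 41128 genes, and 5 of the 10 members, have the same start and end as in the count table. The lengths may therefore differ from those of the annotation that was counted. Alternatives were other scalings and filters, DESeq2 1.42.0, limma 3.58.1 voom, the groups of a comparison alone, a replicate block and leaving out each library. A gene length offset and a crossed pairing were added after seeing the data. Scripts were tested on simulated data.

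The members, the 6 pathway lists and the 8 marker lists were chosen with earlier results of these data known. Genes were named by a rule: the members, their neighbours and overlapping genes, in each 4OHT comparison up to 4 genes of lowest adjusted p from each pathway list, and the 5 genes most correlated with Fgf3 and with Fgfr1 among those of mean CPM at least 5. Marker genes, Gm10093, Kl, Klb, Frs2, Spred1 and Rasa3 were named after their values were seen. Promoters were found for 6 of the 10 members. Intervals and floors cover counting error only where they rest on counts, since PCR copies of a molecule are counted as separate reads.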

Additional observations from a re-analysis of the deposited data

How the results depend on the processing

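The members called in the Hdac2 line were 2 (Fgf3 and Fgfr3). Fgf3 was chosen on that comparison, so nothing is read from its call there in any fit. Without any 1 of the 4 Hdac2 libraries the count was 0, where Fgf3 had log2 fold changes of -5.43 to -3.91 and Fgfr3 of -1.69 to -0.85. Leaving out 1 library gave 0 to 1 members for the difference between the lines and 0 to 2 between the EtOH libraries, where Fgf2 and Fgfr1 were called without Hdac1 EtOH replicate 1. Wherever 1 member is counted for the difference it is Fgf3, which was chosen on values within that difference, so nothing is read from that count. Genes called over the whole table then ran from 0 to 6422 in the Hdac2 line, from 0 to 3740 for the difference and from 1 to 3871 between the EtOH libraries, and pathway genes from 0 to 32, 0 to 20 and 0 to 26. These fits assume that the lone library of a group varies like the other groups. DESeq2 called 32 genes in the Hdac1 line, 1781 for the difference and 2801 between the EtOH libraries, with 2, 11 and 21 pathway genes, and 1 member each for the difference and the EtOH libraries (Fgf15). With no filter on low counts 4, 1187 and 2064 genes were called in the same order, with 6 pathway genes for the difference and 1 member (Fgf15) between the EtOH libraries, and in the Hdac2 line Fgf3 was no longer among the members called. For the difference, no scaling beyond library size gave 11 genes and limma-voom 1. Fits to the groups of a comparison alone gave 39 pathway genes in the Hdac2 line and, between the EtOH libraries, 141 genes and 3 pathway genes. The gene length offset gave 173 genes and 4 pathway genes for the difference and 2055 and 18 between the EtOH libraries. Upper quartile scaling moved the median of all genes in the Hdac2 line by -0.13 and the share of calls that were higher to 43.5%, and no scaling moved them by -0.12 and to 44.3%, from 52.4%.

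Some signs turned between fits, in part near 0 and in part over wide ranges. Fgf15 in the Hdac2 line had 0.025 with RLE, 0.024 with DESeq2, 0.19 with the length offset and -1.23 to 0.65 over the left-out libraries. With the length offset Fgfr1 (-0.0095) and Fgfr2 (-0.10) reversed in the Hdac2 line and Fgfr1 (-0.14) in the difference. In the Hdac1 line, over the left-out libraries, Fgf3 had -2.32 to 0.45, Fgfr1 -0.078 to 0.40, Fgfr3 -0.24 to 0.0024 and Fgf15 -0.0021 to 1.69. The Fgf15 difference had -2.35 to 0.0043. The cause was not tested, beyond there being fewer libraries.

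The replicate numbers are shared by all groups, but the labels do not say that same-numbered libraries belong together. Replicate deviations correlated at -0.73 between the Hdac1 groups and 0.31 between the Hdac2 groups. The replicates of the Hdac1 groups thus deviated in opposite directions, and the numbers may be crossed in that line, which was not tested. The main fit uses no pairing. A replicate block left 2 members called in the Hdac2 line and 0 genes for the difference, and 184 genes and 1 pathway gene between the EtOH libraries. With the Hdac1 numbers crossed, the block called 3 members in the Hdac2 line (Fgf3, Fgfr1 and Fgfr3). It called 1 member, 2541 genes and 19 pathway genes for the difference, and 1, 3576 and 28 between the EtOH libraries. In the Hdac1 line neither block fit put any of the 5 tested members past the threshold. Paired in the crossed way, Fgf3 in the Hdac1 line went from 17.8 to 13.1 CPM and from 5.75 to 2.36 CPM.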
